A study of Saccharomyces cerevisiae with 30 samples.

Results

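The mitochondrial ribosomal protein genes are the nuclear genes for the protein subunits of the ribosome inside mitochondria. They were taken as every gene on the array whose symbol is MRPL, MRPS, MRP or RSM followed directly by a number. This gave 66 of the 5547 genes named on the array, each with 1 spot. By symbol, 33 are MRPL genes, 9 MRPS, 13 MRP and 11 RSM. By the place of the protein, 37 belong to the large subunit and 28 to the small subunit, and MRP8, which carries the name but is not known as a subunit of the ribosome, was assigned to neither. MRPL15 matches the rule but is not named on the array and was not analysed here.

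The mitochondrial ribosome translates the few proteins encoded by mitochondrial DNA, most of which are core subunits of the respiratory chain and ATP synthase. Its proteins are made from nuclear genes in the cytosol and imported, so that the organelle's ribosome depends on nuclear transcription. In budding yeast these genes are often described as a regulon separate from the genes of the cytoplasmic ribosome, and the RNA-binding protein Puf3 is known to bind many of their mRNAs.

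The series title names TFIID and SAGA, coactivators through which the TATA-binding protein reaches promoters, and the arrays compared yeast strains in pairs of RNA samples. Each of 30 arrays held RNA in both channels, with YJS6 as the reference on 16 arrays and YKH105 on 14. The strains YKH100, YKH101, YJS7, YJS8 and YJS9 were set against YJS6, and YKH104, YKH106, YKH107, YKH108 and YKH109 against YKH105, all grown at 26 °C to an OD600 near 0.8 and held at 37 °C for 45 min. YJS8 was also harvested at 26 °C. YKH109 had 3 arrays and every other group with a test strain 2. A further 4 arrays held YJS6 in both channels and 3 held YKH105 in both, and these 7 self arrays show the measure where no strain differs. The genotypes of the strains, and any allele that a group shares with its reference, are not given in the sources used here. Any gene difference below is a difference between the named strains.

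Values are log2 ratios of a test strain to its reference, a direction that is likely and not stated: GCN5 lay at -4.96 on the YKH100 array and between -5.66 and -5.13 on the YKH101 arrays, while it lay between -0.12 and 0.27 on the 7 self arrays. GCN5 was also at 2.54 and 2.42 in YJS7 and at 3.39 and 3.03 in YJS9, so its sign differs between strains. If the ratios ran the other way, every higher call below would be a lower one. Between 5955 and 6388 of the 6400 spots had a value on an array. Their own medians ran from -1.23 to 0.67, and on the self arrays from -0.54 to 0.67, and the array's own median was therefore subtracted, so that a centred ratio is relative to the median gene of that array. A gene was called higher or lower when its limma adjusted p was under 0.05. Replicate 2 of YKH100 and replicate 2 of YJS8 at 37 °C held identical values at 6379 spots and were left out of the fit, which leaves 1 array for each of these groups and no replicate check of their own. In the repeated column GCN5 lay at -6.01, against -4.96 on the other YKH100 array and 0.51 on the other YJS8 array. By this gene the column is like YKH100 and unlike YJS8. YKH109 replicate 2 stood apart, with 5955 spots and an SD of 1.14 over all genes where the other YKH109 arrays had 0.80 and 0.77. The opposite orientations of YJS8 at 26 °C correlated at -0.44, while the other 11 such pairs by label were positive. Among these, the pairs of YKH100 (0.29) and of YJS8 at 37 °C (0.11) both use the repeated column, so they cannot both be pairs of 1 strain. Nothing in the labels says that the arrays of a strain are separate cultures, and the spread behind each p-value is that between arrays. In bulk RNA a lower share of a transcript and a lower amount per cell cannot be told apart.

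As a set the 66 genes lay above the median gene on every array of a shifted test strain on the centred scale, while without centring the group medians fell below 0 in 7 of the 10 shifted groups. On the 7 self arrays their median was between -0.04 and 0.08, and 29 to 45 of them lay above the array median. On the arrays of shifted test strains, the repeated column included, their median was between 0.18 and 0.71, and 47 to 63 of them lay above the array median. The ranges of these medians on self and shifted test arrays did not overlap. The highest medians were on the YKH107 arrays, at 0.71 and 0.60, followed by YKH109 replicate 3 at 0.51. The 2 arrays of YJS8 at 26 °C lay with the self arrays, at 0.01 and -0.04.

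**Figure D1:**
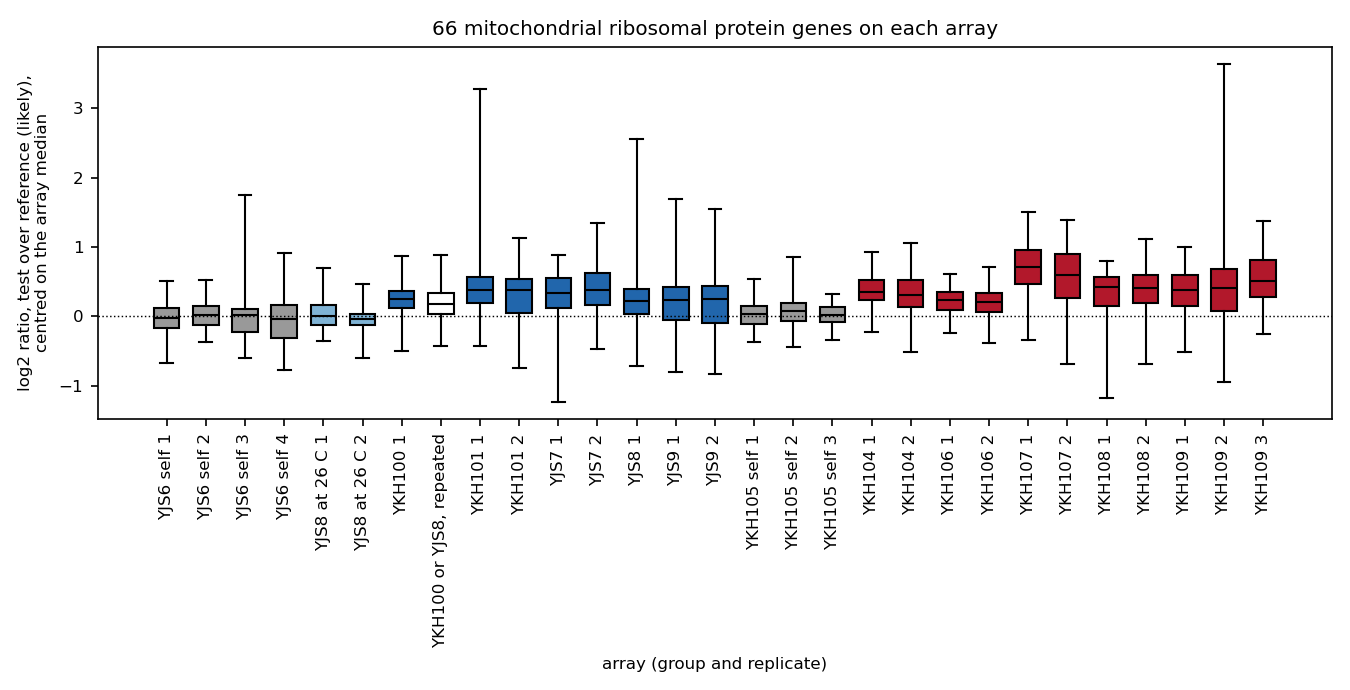
Centred log2 ratio of the 66 genes on each array (box: quartiles, line: median, whiskers: lowest and highest gene), with self arrays in grey, YJS8 at 26 °C in light blue, other YJS6-referenced strains in blue, YKH105-referenced strains in red and the repeated column in white. Boxes of the shifted strains sit above 0 by their medians (0.18 to 0.71), while self arrays have medians of -0.04 to 0.08; on the deposited scale many of these medians are below 0.

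In YKH107, 44 of the 66 genes were called higher and 1 lower, where 23.5% of all genes tested were called higher and 24.9% lower. The median of the 66 estimates was 0.61, or 1.53-fold, against 0.00 for all genes. In YKH109, 37 were higher and 1 lower (background 25.1% and 27.8%), with a median of 0.45, or 1.37-fold. The shares of the 66 genes called higher were 66.7% in YKH107 and 56.1% in YKH109, and 30 genes were called higher in both strains. The overlap over all genes was not counted, so the 30 cannot show an overlap particular to the members. Both strains were measured against the same reference strain, YKH105, and on the deposited scale neither had a single member called higher.

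YKH108 had 22 genes higher and 1 lower (background 17% and 19.9%) and YKH101 had 21 higher and 1 lower (background 18.9% and 20.4%). YKH104 had 17 higher and 0 lower (background 6.47% and 7.09%), and YJS7 had 14 higher and 0 lower (background 7.38% and 6.93%). The medians of these 4 groups were close together, at 0.38, 0.37, 0.35 and 0.38. With all arrays the share called higher was 33.3%, 31.8%, 25.8% and 21.2%, above that of all genes in each. This did not hold for YKH108 without its replicate 2, where 5 of 66 (7.58%) were higher against 7.93% of all genes.

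In 5 groups the share was near the background or the count was small. YJS9 had 8 genes higher and 3 lower, where 20.9% of all genes were called higher and 23.1% lower, so that its 12.1% higher was under the background although the median of the 66 was 0.23. YJS8 had 3 higher and 0 lower (background 8.14% and 7.74%), with a median of 0.24 on 1 array. YKH100 had 1 higher and 0 lower (background 0.637% and 0.691%) with a median of 0.21, and YKH106 had 1 higher and 0 lower (background 0.636% and 0.455%) with a median of 0.20. YJS8 at 26 °C had 0 members called in either direction by limma and 0 with an unadjusted p under 0.05, where 1 gene of 5492 was called at all (0.0182% higher, 0% lower), and its median was -0.03.

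**Figure D2:**
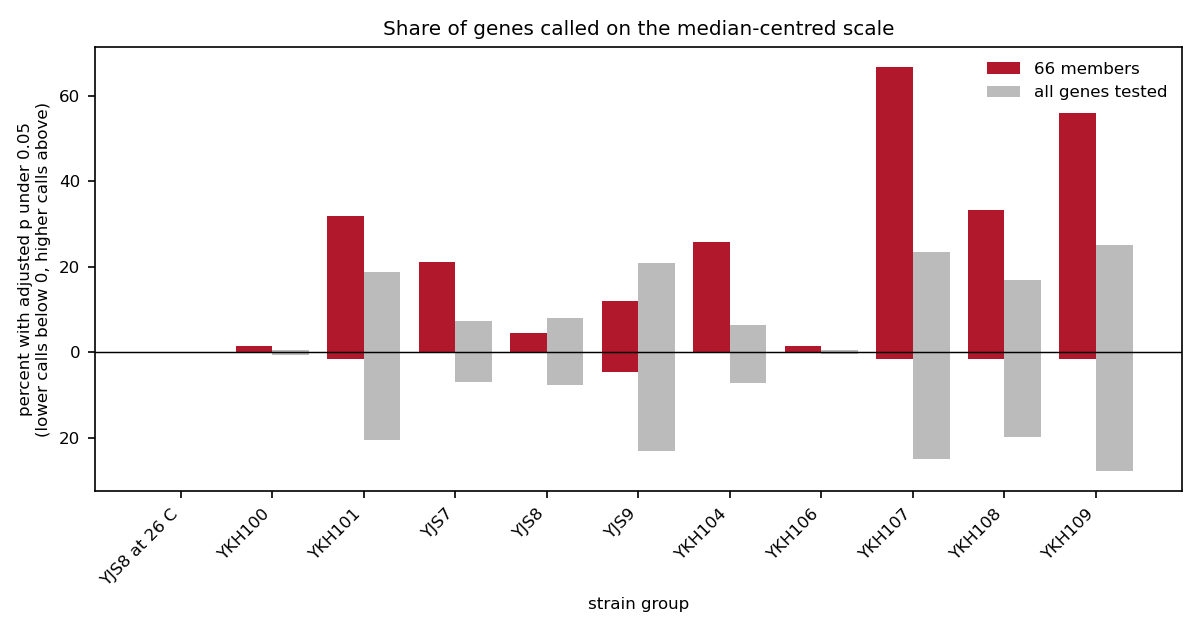
Percent of the 66 genes (red) and of all genes tested (grey) called higher (above 0) or lower (below 0) in each strain group on the centred scale. The red bars reach 66.7% in YKH107 and 56.1% in YKH109 against 23.5% and 25.1% of all genes; on the deposited scale no member is called higher in any group.

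These counts depend on single arrays. Leaving out YKH107 replicate 1 left 21 higher and 2 lower (background 14% and 15.6%), and leaving out replicate 2 left 27 higher and 0 lower (background 12.1% and 15.1%). Without YKH109 replicate 2, the array that stood apart, 35 were higher and 0 lower, where 22.1% of all genes were higher and 26.5% lower, and the median was 0.46. YKH101 had 8 higher and 1 lower without replicate 1, or 12.1% higher against 10.2% of all genes (12.6% lower), and 9 higher and 0 lower without replicate 2, or 13.6% against 10.7% (10.5% lower). YKH108 had 9 higher and 0 lower without replicate 1 (background 9.24% and 9.99%), and 5 higher and 1 lower without replicate 2 (background 7.93% and 10.3%). YKH104 had 2 higher and 0 lower without either array, where the background was 0.364% and 0.946% without replicate 1 and 0.802% and 1.13% without replicate 2. YJS7 had 5 higher and 1 lower without replicate 2 (background 2.34% and 3.74%). YKH106 had 0 called without either array, where 0.164% of all genes were still called higher in both cases. YJS9 had 6 higher and 1 lower without its replicate 1 (background 13% and 13.7%) and 4 higher and 1 lower without its replicate 2 (background 13.7% and 13.7%). Without YKH109 replicate 2, YJS9 had 15 higher and 3 lower (background 23.1% and 26.5%) and YJS8 had 7 higher and 0 lower (background 9.44% and 9.33%). YJS8 had 4 higher and 1 lower without YJS7 replicate 2 (background 8.89% and 8.56%). The 1 call of YKH100 was lost without any 1 of 17 arrays of other groups.

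The direction of the set rests on the centring in 7 of the 10 shifted groups. On the deposited scale the median of the 66 estimates was -0.35 in YKH107, -0.46 in YKH109, -0.31 in YKH108, -0.32 in YKH101, -0.28 in YJS9, -0.63 in YJS8 and -0.024 in YKH100. Positive medians remained for YJS7 (0.57), YKH104 (0.45) and YKH106 (0.37). The median of all genes lay lower than that of the members in each of these 10 groups, at -0.96 in YKH107, -0.89 in YKH109, 0.18 in YJS7 and 0.11 in YKH104, for example.

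With the deposited values, limma called 0 members higher in any group, where the share of all genes called higher was 3.49% in YJS9, 2.13% in YKH101, 2.04% in YKH109, 1% in YKH108, 0.563% in YKH107, 0.351% in YJS7, 0.146% in YJS8, 0.0363% in YKH104 and 0.0182% in YKH100, YKH106 and YJS8 at 26 °C. An unadjusted p under 0.05 with a higher value was reached there by 14 members in YJS7, 9 in YKH104, 2 in YKH106, 1 each in YJS8, YJS9 and YKH101, and 0 in the other 5 groups. Members were called lower in 5 groups, 9 in YKH107, 16 in YKH109, 1 in YKH108, 3 in YKH101 and 4 in YJS9. In YKH107 this was 13.6% of the members where 53.4% of all genes were called lower, and in YKH109 24.2% where 60.6% were. In YKH101, YJS9 and YKH108 the background was 31.1%, 22.6% and 29.8%. In the other groups 0 members were called lower, where the background was 2.1% in YJS8, 0.182% in YKH100, 0.111% in YJS7, 0.109% in YKH104 and 0% in YKH106 and YJS8 at 26 °C. RSM26 was among the deposited-scale lower calls of 4 groups, at -1.47 in YKH107 and -1.33 in YKH109, and MRPL1 among those of 4 groups, at -1.62 in YKH108.

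**Figure D3:**
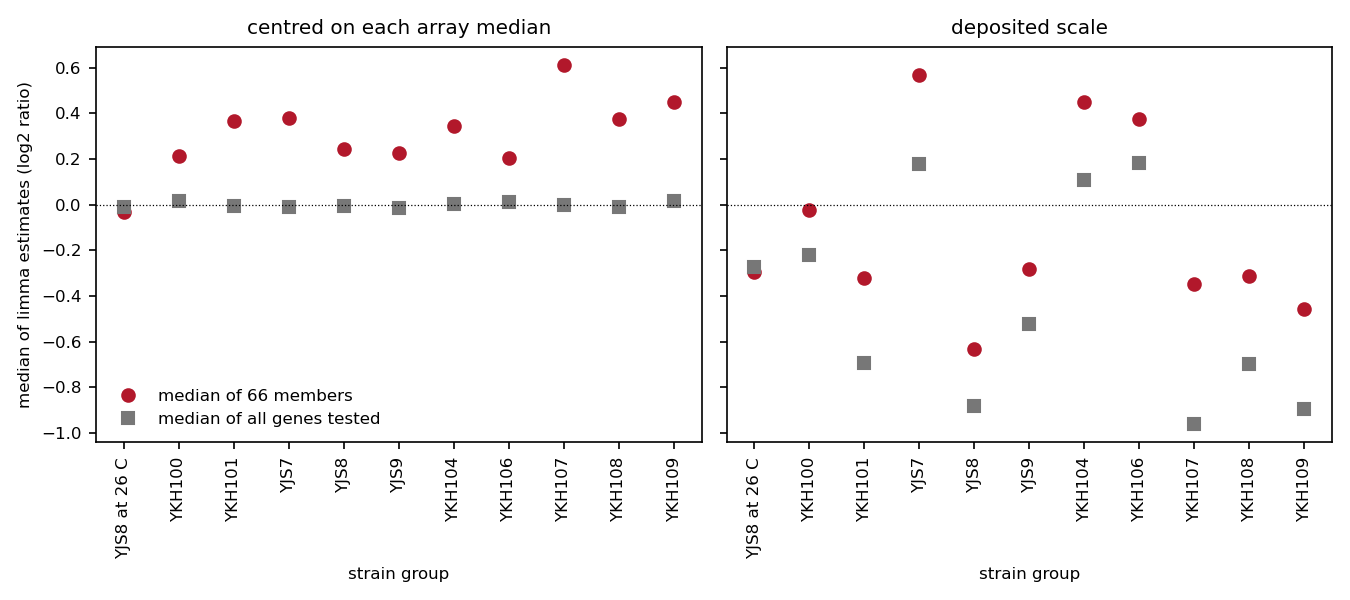
Median of the limma estimates of the 66 genes (red circles) and of all genes tested (grey squares) in each strain group, on the centred scale (left) and the deposited scale (right). The members lie above all genes in the 10 shifted groups on both scales, but below 0 in 7 of them on the deposited scale, for instance at -0.35 in YKH107.

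Genes of both subunits were called higher on the centred scale. In YKH107, 26 of 37 large subunit genes (70.3%) and 17 of 28 small subunit genes (60.7%) were called higher, with medians of 0.63 and 0.58. In YKH109 it was 22 large (59.5%) and 14 small (50%), with equal medians of 0.45. In YKH108 the small subunit genes had 10 calls (35.7%) and the large 11 (29.7%). Of all genes tested, 23.5% were called higher in YKH107, 25.1% in YKH109 and 17% in YKH108. The difference between subunits was not tested, and on the deposited scale neither subunit had a member called higher.

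YJS7 and YKH101 had the widest gap in calls between subunits. YJS7 had 10 large (27%) and 3 small (10.7%) subunit genes higher, and YKH101 had 14 large (37.8%) and 6 small (21.4%). Of all genes tested, 7.38% were called higher in YJS7 and 18.9% in YKH101, so the small subunit shares were near the background there. The medians differed little: 0.38 and 0.35 in YJS7, 0.38 and 0.36 in YKH101.

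Across the 10 shifted groups, 54 of the 66 genes (81.8%) were called higher at least once and 12 (18.2%) in 5 groups or more. Of the 5207 genes tested in all 10 groups, 45.5% were called higher at least once and 9.47% in 5 groups or more. RSM27, a small subunit protein gene, was called higher in 9. MRPL19, MRPL25 and MRP8 followed with 7 groups each. A further 9 genes were called in no group and in neither direction, and the share of all genes without a call was not counted. The estimate was above 0 in all 10 groups for 35 of the 66, where the deposited scale puts most estimates of YKH107, YKH109 and YKH101 below 0.

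**Figure D4:**
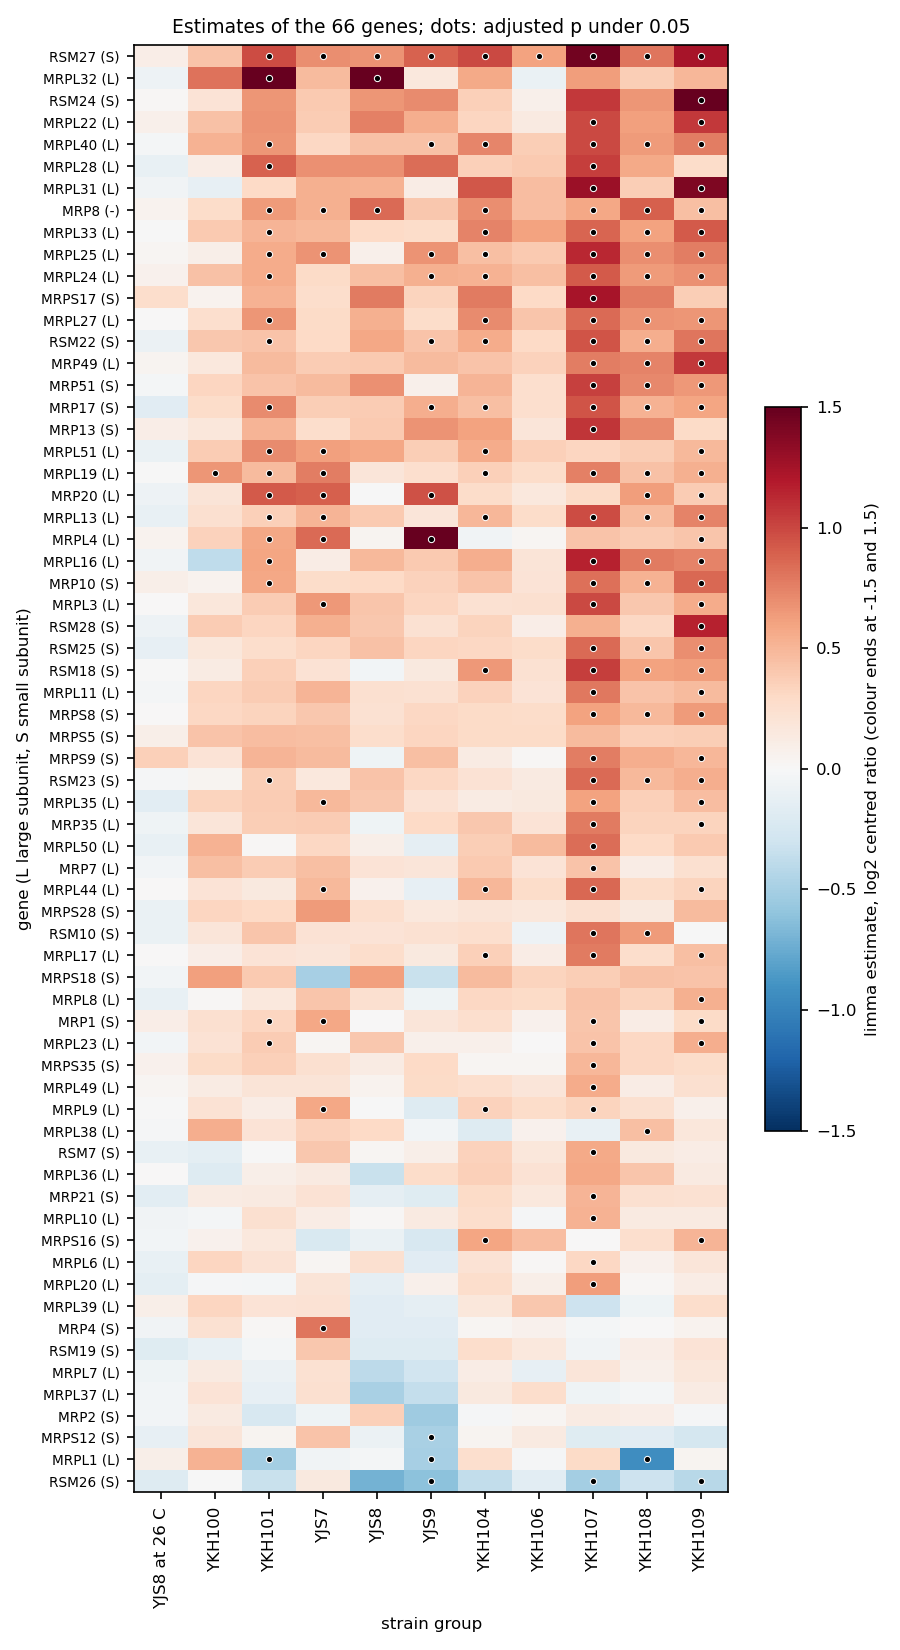
Limma estimate of each of the 66 genes (rows, ordered by their mean over the shifted groups, L large and S small subunit) in each strain group, as a centred log2 ratio, with a dot where the adjusted p was under 0.05. RSM27 is at the top with 9 dots, RSM26 and MRPL1 at the bottom with 3 lower calls each, and the column of YJS8 at 26 °C has none; with no centring all higher calls are lost.

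RSM27 lay between -0.03 and 0.32 on the 7 self arrays. Against YKH105 its centred ratios were 1.501 and 1.39 in YKH107, 1.001, 1.38 and 1.38 in YKH109, 0.93 and 1.06 in YKH104, 0.72 and 0.88 in YKH108, and 0.50 and 0.71 in YKH106. Against YJS6 they were 0.90 and 1.07 in YKH101, 0.82 and 0.94 in YJS9, 0.62 and 0.77 in YJS7, 0.61 in YJS8 and 0.37 in YKH100. Every array of a shifted test strain lay above all 7 self arrays, and the YKH107 arrays were the highest. The estimate was 1.45 in YKH107 (SE 0.11, n = 2, limma adjusted p = 1.96e-06), a 2.73-fold ratio to the median gene, and 1.23 in YKH109 (SE 0.09, n = 3, adjusted p = 6.95e-07). It was lowest among the calls in YKH106, at 0.61 (SE 0.11, n = 2, adjusted p = 0.0256), and that call was lost without either YKH106 array, with adjusted p of 0.212 and 0.622. Without centring the estimate in YKH107 was 0.49 (adjusted p = 0.226) and that in YJS8 was -0.20.

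MRPL19, MRPL25, MRPL13 and MRPL40, all of the large subunit, were each called higher in 6 or 7 groups on the centred scale. MRPL19 lay between 0.02 and 0.15 on the self arrays and at 0.84 and 0.67 in YKH107, 0.78 and 0.75 in YJS7, 0.43, 0.50 and 0.69 in YKH109, and 0.65 on the YKH100 array. MRPL13 lay between -0.02 and 0.32 on the self arrays and at 1.01 and 0.94 in YKH107, 0.49 and 0.50 in YKH104 and 0.48 and 0.48 in YKH108. For MRPL19 the named arrays all lay above the self arrays, and for MRPL13 likewise. MRPL25 lay between -0.11 and 0.33 on the self arrays and at 1.29 and 0.96 in YKH107, but at 0.59 and 0.19 in YKH106, where it overlapped them. MRPL19 was the sole member called in YKH100, at 0.66 (SE 0.14, n = 1, adjusted p = 0.0484). MRPL40 lay at 0.68 and 0.78 in YKH104, where its estimate was 0.73 (SE 0.10, n = 2, adjusted p = 0.000897), against -0.09 to 0.56 on the self arrays. Without centring these calls did not pass, with adjusted p of 0.9999 for MRPL19 in YKH100 and 0.696 for MRPL40 in YKH104.

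Some genes were high in the YJS6-referenced strains. MRPL4, of the large subunit, lay at 1.69 and 1.54 in YJS9, 0.74 and 0.96 in YJS7, 0.58 and 0.58 in YKH101, 0.44 in YKH100 and 0.13 in YJS8, and between -0.26 and 0.45 on the self arrays. The YJS9 arrays were the highest and lay apart from every other array. Its estimate in YJS9 was 1.61 (SE 0.18, n = 2, adjusted p = 2.54e-05), and in the YKH105-referenced groups it was between -0.05 and 0.43, with 1 call, in YKH109. The deposited-scale estimate in YJS9 was 1.11 (adjusted p = 0.052). In YJS7 the call of MRPL4, at 0.85 (SE 0.18, n = 2, adjusted p = 0.0105), was lost without replicate 2 (adjusted p = 0.182).

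MRP20, whose protein lies at the polypeptide exit of the large subunit, was called higher in 5 groups, with its highest estimates in YKH101 (0.92), YJS7 (0.90) and YJS9 (0.96), each with an SE of 0.15 and n = 2. Without centring none of these 3 calls passed (adjusted p of 0.650, 0.359 and 0.410). Its arrays read 0.70 and 1.13 in YKH101, 0.64 and 1.15 in YJS7, and 1.08 and 0.84 in YJS9. The YJS6 self arrays alone spread from -0.35 to 0.91, so these groups overlapped the self arrays. The call in YJS7 was lost without replicate 2 (adjusted p = 0.0944).

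MRP4, of the small subunit, was called higher in 1 group, YJS7, at 0.80 (SE 0.14, n = 2, adjusted p = 0.00413). Its YJS7 arrays read 0.50 and 1.10, and all its other arrays lay between -0.29 and 0.27. With the deposited values MRP4 was called lower in YKH107 (-0.99) and YKH109 (-0.85), and in YJS7 it was at 0.99 (adjusted p = 0.387). Without YJS7 replicate 2 the YJS7 call was lost (0.41, adjusted p = 0.0962).

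MRP8 was called higher in 7 groups, with its highest estimates in YKH108 at 0.90 (SE 0.16, n = 2, adjusted p = 0.00102) and in YJS8 at 0.85 (SE 0.23, n = 1, adjusted p = 0.0263). Its arrays read 0.69 and 1.11 in YKH108 and 0.84 in YJS8, and its self arrays lay between 0.04 and 0.48. Without YKH108 replicate 2 the YKH108 call was lost (adjusted p = 0.0593), and the YJS8 call with the repeated column read as YJS8 (adjusted p = 0.220). The deposited-scale estimate in YJS8 was -0.025.

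MRPL33 and MRPL16 are large subunit genes named by the same rule. MRPL33 in YKH104 read 0.83 and 0.65, and its estimate was 0.74 (SE 0.15, n = 2, adjusted p = 0.00857). MRPL16 in YKH108 read 0.72 and 0.84, and its estimate was 0.78 (SE 0.19, n = 2, adjusted p = 0.00615). Both pairs of arrays lay above the self arrays of the gene, which reached 0.25 for MRPL33 and 0.35 for MRPL16, but each call was lost without either array of its group.

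In YKH107 the highest estimates after RSM27 were those of MRPL31, of the large subunit, and MRPS17, of the small subunit. MRPL31 read 1.37 and 1.20 in YKH107 (1.28, SE 0.31, n = 2, adjusted p = 0.00504), and MRPS17 read 1.31 and 1.18 (1.24, SE 0.35, n = 2, adjusted p = 0.0109). In each case the 2 arrays were close and lay far above the self arrays, which reached 0.36 and 0.32. The SE comes from the spread of a gene over all groups, and both genes lay far apart on the YKH109 arrays. MRPL31 read 0.68, 2.66 and 0.98 there, and MRPS17 read 0.67, -0.85 and 1.30. The MRPL31 call was lost without YKH107 replicate 1 (adjusted p = 0.118), and the MRPS17 call without either YKH107 array.

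YKH109 replicate 2 carried the most deviating values of the members. On it 5 of the 59 members with a value lay beyond 1.5 from the array median, where every other array had 1 or 0. RSM24, of the small subunit, read 0.50, 3.63 and 1.03 in YKH109 (1.65, SE 0.38, n = 3, adjusted p = 0.00346). RSM28, also of the small subunit, read 0.14, 2.71 and 0.79 (1.16, SE 0.31, n = 3, adjusted p = 0.00798). In both genes replicate 2 was the high value. Without it the YKH109 estimates were 0.76 for RSM24 (adjusted p = 0.000178), 0.46 for RSM28 (adjusted p = 0.00914) and 0.83 for MRPL31 (adjusted p = 0.000169). MRPS17, which was not called in YKH109 with all arrays (0.37, adjusted p = 0.299), had an estimate of 0.99 without replicate 2 (adjusted p = 0.000183). The 7 members with no value on that array were MRP10, MRPL13, MRPL38, MRPL39, MRPL49, MRPS5 and RSM23.

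MRPL32, a large subunit protein whose maturation by a mitochondrial inner membrane protease is known to precede ribosome assembly, had the highest single values outside that array. It read 3.27 and 0.34 in YKH101 (1.81, SE 0.48, n = 2, adjusted p = 0.00988) and 2.55 on the 1 YJS8 array (2.49, SE 0.69, adjusted p = 0.0302). Its self arrays ran from -0.77 to 0.86. The second YKH101 array lay inside that range, and without the first the estimate was 0.23 (adjusted p = 0.654). With the repeated column read as YJS8, where MRPL32 was 0.19, the YJS8 estimate was 1.37 (adjusted p = 0.152).

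On the centred scale lower calls were made for 3 of the 66 members (4.55%). Of 5207 genes tested in all shifted groups, 44.1% were called lower in at least 1. In the groups of these member calls the median of the set was above 0 on the centred scale and below 0 on the deposited one. MRPL1, the large subunit counterpart of a bacterial protein of the mobile stalk beside the tRNA exit site, read -1.18 and -0.69 in YKH108, -0.28 and -0.74 in YKH101 and -0.72 and -0.27 in YJS9. Its self arrays ran from -0.44 to 0.50, and the YKH108 arrays lay below all of them while the other groups overlapped them. The YKH108 estimate was -0.93 (SE 0.18, n = 2, adjusted p = 0.00168), and the call was lost without replicate 1 (adjusted p = 0.0601). The YKH101 call (-0.51, adjusted p = 0.0392) was lost without replicate 2, and the YJS9 call (-0.49, adjusted p = 0.0404) without either array. In the other YKH105-referenced strains the arrays of MRPL1 read between -0.23 and 0.60.

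RSM26, a small subunit protein related in sequence to superoxide dismutases, was called lower in YJS9 (-0.61, SE 0.16, n = 2, adjusted p = 0.00731), YKH107 (-0.51, SE 0.16, n = 2, adjusted p = 0.018) and YKH109 (-0.42, SE 0.13, n = 3, adjusted p = 0.0165). Its arrays read -0.81 and -0.42 in YJS9, -0.34 and -0.68 in YKH107, and -0.51, -0.49 and -0.25 in YKH109. The self arrays of RSM26 were themselves below 0, with a median of -0.26 and a range of -0.41 to 0.16, and the arrays of YKH107 and YKH109 overlapped them, while the YJS9 arrays lay below them. The YJS9 call was lost without replicate 1 (adjusted p = 0.214), the YKH107 call without replicate 2 (0.335) and the YKH109 call without replicate 1 or 2 (0.104 and 0.0666).

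MRPS12, the counterpart of a bacterial protein at the decoding centre, was called lower in YJS9, at -0.49 (SE 0.15, n = 2, adjusted p = 0.017), with arrays at -0.31 and -0.67. Its self arrays ran from -0.40 to 0.19, so the groups overlapped, and the call was lost without either array. Its chromosomal neighbour RSM19, the sole case of adjacent members in the RefSeq gene table, read 0.29 and -0.68 in YJS9 and was not called there.

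**Figure D5:**
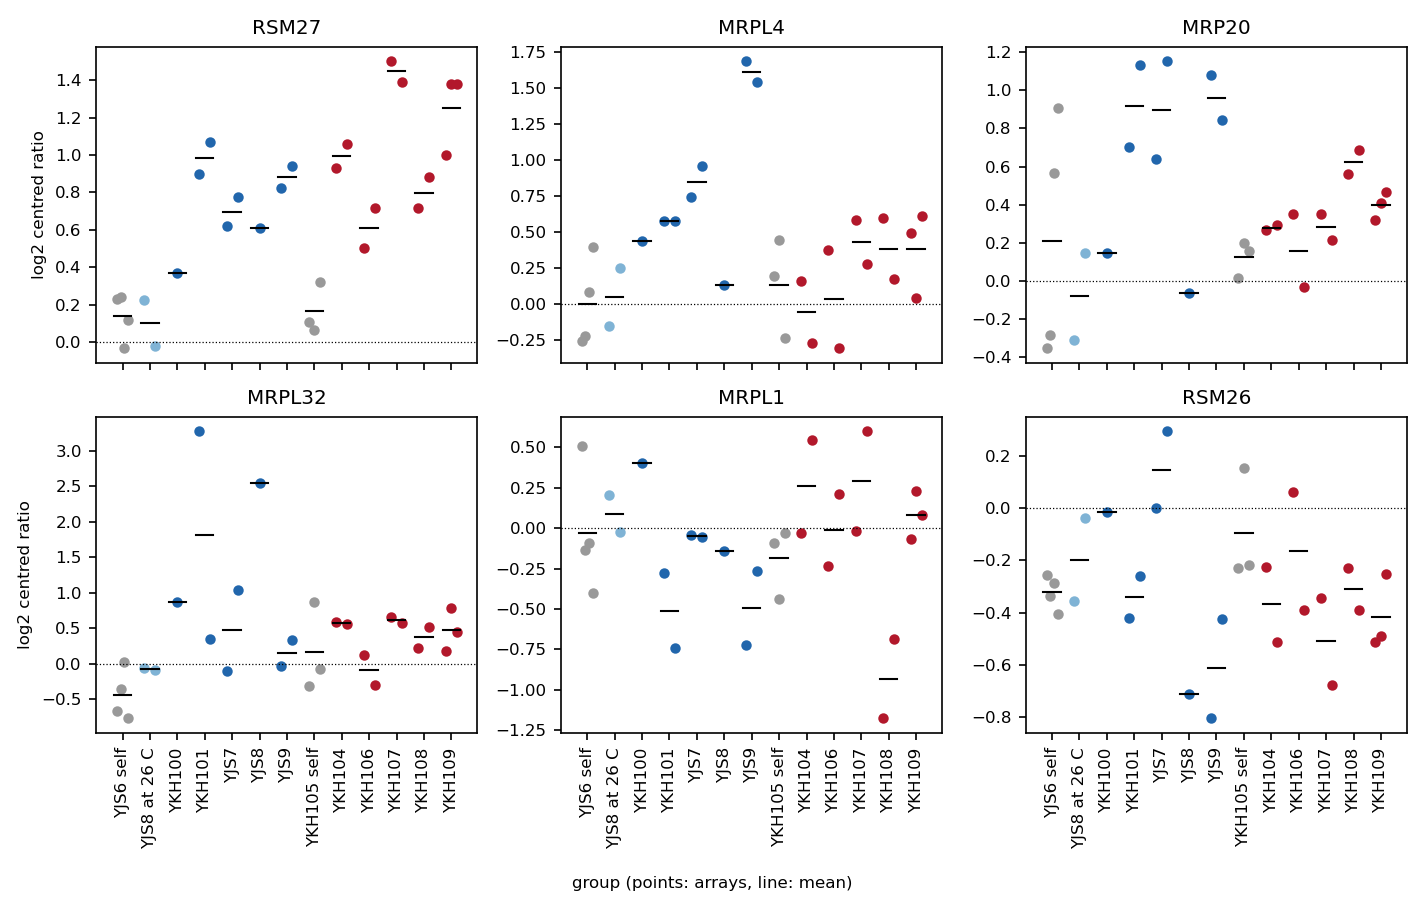
Centred log2 ratios of 6 genes on single arrays (points) with the mean of each group (line), self arrays in grey, YJS8 at 26 °C in light blue, other YJS6-referenced strains in blue, YKH105-referenced strains in red, the repeated column left out. RSM27 lies above its self arrays in each shifted group, MRPL4 is highest in YJS9 (1.69 and 1.54), MRPL32 differs between the YKH101 arrays (3.27 and 0.34), and MRPL1 is lowest in YKH108 (-1.18 and -0.69); with no centring the RSM27 estimate in YJS8 is -0.20.

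Strains that shared a reference were also compared with each other, in 20 pairs, with p-values adjusted over all genes within each pair. Members differed in 13 of the pairs, 48 differences in all. The share of members called higher was above that of all genes in YKH107 minus YKH106. In the other pairs the share in each direction was near or under that of all genes. In YKH107 minus YKH106, 17 of the 66 genes were higher and 1 lower (background 11.3% and 15%), with a median difference of 0.43. RSM27 differed by 0.84 (SE 0.16, adjusted p = 0.00269), MRPL13 by 0.69 (SE 0.14, adjusted p = 0.00437) and MRPL40 by 0.62 (SE 0.14, adjusted p = 0.00682). The 1 lower gene was MRPL39, of the large subunit, at -0.71 (SE 0.22, adjusted p = 0.0326), with arrays at -0.09 and -0.53 in YKH107 and 0.48 and 0.32 in YKH106. Without centring the median difference was -0.70, 0 members were higher and 8 were lower, where 37.3% of all genes were lower.

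YKH109 minus YKH106 had 5 higher and 0 lower (background 10.6% and 15.1%), which were MRP10, MRPL13, MRPL23, MRPL40 and RSM27. YKH107 minus YKH104 had 4 higher and 0 lower (background 6.17% and 8.69%), which were MRPL13, MRPL25, MRPL3 and RSM23, by 0.48 to 0.77. YKH108 minus YKH107 had 0 higher and 6 lower (background 9.76% and 8.01%): MRPL1, MRPL13, MRPL17, MRPL20, MRPL44 and RSM27, by -1.22 to -0.50. Without centring the median differences of these pairs were -0.84, -0.74 and -0.0078. The members that differed there were 7 lower in YKH109 minus YKH106 (background 41.9% lower), 3 lower in YKH107 minus YKH104 (24.2%) and 0 in YKH108 minus YKH107.

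On the centred scale MRPL1 was lower in YKH108 than in each of the other YKH105-referenced strains. YKH108 minus YKH104 had 1 higher and 1 lower (background 7.96% and 7.01%), which were MRPL38 at 0.65 and MRPL1 at -1.19. YKH108 minus YKH106 had 0 higher and 1 lower (background 7.13% and 9.87%), MRPL1 at -0.92. YKH109 minus YKH108 had 1 higher and 0 lower (background 1.5% and 3.6%), MRPL1 at 0.97. YKH109 minus YKH107 had 0 higher and 1 lower (background 6.59% and 4.27%), RSM10, of the small subunit, at -0.80. The adjusted p-values of these 5 differences were between 0.00846 and 0.0403. Without centring MRPL1 was again the 1 member lower in YKH108 minus YKH104 (-1.98, adjusted p = 0.0373, background 1.13% lower) and in YKH108 minus YKH106 (-1.78, adjusted p = 0.0305, background 9.43%). It did not pass in YKH108 minus YKH107 (-0.95, adjusted p = 0.413) or YKH109 minus YKH108 (0.76, adjusted p = 0.943), and 0 members differed in YKH109 minus YKH107.

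Among YJS6-referenced strains, YJS9 minus YJS7 had 0 higher and 6 lower (background 9.03% and 8.99%). MRP4 differed by -0.97 (SE 0.20, adjusted p = 0.00655), MRPS12 by -0.91, MRPL9 by -0.78, RSM26 by -0.76, MRPL44 by -0.61 and MRPL19 by -0.51. MRP4 was also higher in YJS7 than in YKH101 by 0.79, the 1 member of that pair (background 4.79% higher and 5.98% lower), and YJS8 minus YJS7 gave -0.97 for MRP4 as its 1 member (background 3.9% and 1.91%). YJS9 minus YKH100 had 1 higher (background 4.84% and 4.97%) and YJS9 minus YJS8 had 1 higher (background 3.43% and 2.71%), in both cases MRPL4, by 1.26 and 1.57. Without centring, limma called 0 members in any pair of YJS6-referenced strains, with an unadjusted p under 0.05 in 62 cases.

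In 7 pairs limma called 0 members on the centred scale. YKH109 minus YKH104 was one of them, although 8.07% of all genes were higher and 10.8% lower, and 2 members had an unadjusted p under 0.05. Without centring 8 members were lower in that pair, where 35.7% of all genes were, and the median difference was -0.97. The others were YKH101 minus YKH100 (background 2.76% and 2.76%, 5 members with an unadjusted p under 0.05), YJS8 minus YKH100 (2.17% and 1.24%, 3 members) and YJS9 minus YKH101 (1.78% and 0.723%, 5 members). The same held for YJS8 minus YKH101 (0.585% and 0.274%, 2 members), YKH106 minus YKH104 (0.146% and 0.0182%, 2 members) and YJS7 minus YKH100 (0.111% and 0.0185%, 4 members).

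YJS8 at 37 °C minus YJS8 at 26 °C had 0 members called, where 4.37% of all genes were higher and 3.18% lower by limma. Unadjusted p was under 0.05 for 10 members. The median difference of the 66 genes was 0.28 on the centred scale and -0.33 on the deposited scale, and it rests on 1 array at 37 °C. The contrast is a difference between ratios to YJS6, and the temperature of YJS6 beside YJS8 at 26 °C is not stated here. The effect of the shift on YJS8 alone therefore cannot be read from it.

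The order of the genes within the set was similar in strains of both references. Over the 66 genes, the mean estimate of the 5 YJS6-referenced groups correlated with that of the 5 YKH105-referenced groups at r = 0.62 (rho = 0.68). Over all 5201 genes tested in every group the same r was 0.69. The median of the 7 self arrays, where no strain differs, correlated with the mean of the YJS6-referenced groups at r = 0.32 and with that of the YKH105-referenced groups at r = 0.35. These are correlations across genes, which are not independent replicates, and the groups of each reference share it.

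Likeness of pattern was measured as the Pearson correlation of a gene's 11 group estimates with the mean of the other members. The median over the 66 genes was 0.70, and 23 (34.8%) lay above 0.8. Among 5135 genes outside the set, 128 (2.49%) lay above 0.8. MRPL13 was the member most like the rest (r = 0.98) and MRPL39 the least (r = -0.28), followed by RSM26 (r = -0.21). The 5 genes outside the set with the highest values were SIP5, PET123, YDR262W, PET20 and RQC2, of which PET123 is itself a protein gene of the small mitochondrial subunit. Its estimates ran from 0.18 in YKH106 to 1.02 in YKH107 and were -0.12 in YJS8 at 26 °C.

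Other genes of mitochondrial translation were given by lists. Of 12 further mitochondrial ribosomal protein genes outside the name rule, 5 were higher and 0 lower in YKH109, and 4 and 0 in YKH107, on the centred scale. The background was 25.1% higher and 27.8% lower in YKH109, and 23.5% and 24.9% in YKH107. YKH101 had 3 higher and 0 lower (background 18.9% and 20.4%), and YJS9 3 and 1 (20.9% and 23.1%). The medians of the 12 were 0.51 in YKH109, 0.21 in YKH107, 0.24 in YKH108, 0.06 in YKH101 and -0.09 in YJS9. SWS2 was the lower gene in YJS9, at -1.35. PET123 rose in YKH107 (1.02, SE 0.13, n = 2, adjusted p = 7.17e-05), as did YML6 (1.07, SE 0.11, n = 2, adjusted p = 1.21e-05), a large subunit gene. IMG2, also of the large subunit, rose in YKH109 (1.01, SE 0.10, n = 3, adjusted p = 6.52e-06). Of 13 mitochondrial aminoacyl-tRNA synthetase genes, 8 were higher in YKH109, 7 in YKH107 and 4 in YKH108, with 0 lower in each, where 25.1%, 23.5% and 17% of all genes were higher. YJS9 had 2 of them higher and 1 lower, YKH101 1 and 1, YJS7 1 and 0, and the other shifted groups 0. The deposited-scale medians of both lists were below 0 in YKH109, YKH107 and YKH108.

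The translation factors moved in both directions. In YKH107, 4 of 9 were higher and 1 lower, where 23.5% of all genes were higher and 24.9% lower. The median of the 9 was 0.20, and -0.76 on the deposited scale. GUF1, an elongation factor-like GTPase, was at 1.16 (SE 0.21, n = 2, adjusted p = 0.000741), and MRF1, the mitochondrial release factor, was at -0.86 (SE 0.16, n = 2, adjusted p = 0.00101). In YJS9 GUF1 was at 1.70 and MRF1 at -0.96. Of 15 translational activators of single mitochondrial mRNAs, 8 were higher and 0 lower in YKH109, and 6 higher and 1 lower in both YKH107 and YJS9. The background was 25.1% higher and 27.8% lower in YKH109 and 20.9% and 23.1% in YJS9. The medians of the activators were 0.41, 0.47 and 0.43 in YKH109, YKH107 and YJS9 on the centred scale and -0.50, -0.49 and -0.07 on the deposited scale. Of the 4 genes of mitochondrial transcription and the nucleoid, MSS116, a helicase of mitochondrial RNA, was higher in YKH107 (1.72) and ABF2, which packages mitochondrial DNA, was lower (-0.95). Among 6 ribosome assembly and rRNA methylation genes, GEP3 and MTG1, both GTPases, were higher in YKH107 (1.40 and 0.85).

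The 135 genes taken by name for the cytoplasmic ribosome lay on the other side of the median gene in these strains by their medians. Among them is RPP1, which is not a ribosomal protein gene. In YKH107, 5 of the 135 genes were higher and 88 lower (background 23.5% and 24.9%), with a median of -0.72. In YKH109, 2 were higher and 104 of 134 lower (background 25.1% and 27.8%), with a median of -0.80. In YKH101, 0 were higher and 115 of 134 lower (background 18.9% and 20.4%), with a median of -1.04. In YJS8, YJS9 and YKH108 the medians were -0.79, -0.83 and -0.90, and in YKH104 and YKH106, -0.33 and -0.02. The deposited-scale median was -1.68 in YKH107 and -1.70 in YKH109, while it was 0.15 in YKH106. The difference between the 2 sets of ribosomal genes was not tested.

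The nuclear genes of the respiratory chain, 34 in the list, were called in both directions. YKH109 had 14 higher and 3 lower (background 25.1% and 27.8%), YKH107 13 and 3 (23.5% and 24.9%), and YJS9 5 and 14 (20.9% and 23.1%). The medians of the 34 genes were 0.23, 0.27 and -0.39 on the centred scale and -0.69, -0.69 and -0.90 on the deposited scale. SDH2, the iron-sulphur subunit of succinate dehydrogenase, was at 1.999 in YKH107 and 1.90 in YKH109. Of 27 protein import genes, 10 were higher and 3 lower in YKH107 (background 23.5% and 24.9%), with a median of 0.33. YKH109 had 5 higher and 3 lower (background 25.1% and 27.8%), with a median of 0.01. YJS9 had 2 and 5 (background 20.9% and 23.1%), and YKH108 2 and 2 (background 17% and 19.9%), with medians of -0.06 and -0.03. Of 6 regulators, HAP4, the activating subunit of the HAP complex, was called in 7 groups, at 1.90 in YKH101, 1.72 in YJS9, 1.23 in YKH108, 0.87 in YJS8 (n = 1, adjusted p = 0.0187), -0.51 in YKH107, -0.73 in YKH104 and -0.76 in YKH106. PUF3 was called in YJS9 at 1.11 (SE 0.33, n = 2, adjusted p = 0.0153). The HAP4 estimates had opposite signs in YKH107 and YKH108, where the median of the 66 genes was above 0 on the centred scale and below 0 on the deposited scale in both. Without centring HAP4 was at 1.21 in YKH101 and in YJS9 (adjusted p = 0.00904 and 0.0112), -1.47 in YKH107 (adjusted p = 0.00111) and -0.72 in YKH109 (adjusted p = 0.0255). It did not pass there in YKH108 (0.54), YJS8 (-0.0082), YKH104 (-0.62) or YKH106 (-0.59).

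By the RefSeq gene table, 37 of the 66 genes (56.1%) have a divergent upstream neighbour, against 52% of 5992 protein-coding genes. Over the 31 such members with values for both genes in all shifted groups, the mean estimates of member and neighbour correlated at r = 0.16, and their medians were 0.40 and 0.02. Over 27 members with a tandem upstream neighbour r was -0.05. Cytoplasmic ribosomal protein genes flank 5 members, and in each case the mean over the shifted groups was above 0 for the member and below 0 for its neighbour. The mean was above 0 for 60 of the 66 members, and the cytoplasmic set had medians below 0 in every shifted group. The 5 pairs therefore show no more than the sets do. In YKH107 alone, RPL36A beside MRPL24 was at 0.50 and RPS27A beside RSM22 at 0.24. RSM27 was at 0.87 and RPS0A beside it at -0.74, and MRPL22 was at 0.59 and RPS3 at -0.48. MRP4, MRPL19 and MRPL51 overlap another annotated gene, and a spot that does not mark strand cannot tell their transcripts apart, so their values are less certain.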

How the data were processed

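The authors deposited log2 ratios of the 2 channels, 1 value per spot and array, whose normalization is not given in the sources here. Per the labels' protocols, arrays were scanned with a GenePix 4000A and read with GenePix Pro 4.0. Of 6400 spots, 5578 carried 1 gene. Names and gene neighbours came from RefSeq's R64 table, and no sequences were used. Neighbours, upstream genes and overlaps were found from its start and end positions, with the strand from the systematic name. Spots of a gene were averaged and arrays centred on their median. limma 3.58.1 in R 4.3.3 (lmFit, eBayes) fitted 21 arrays with 1 term per group and a gene-wise dye term, with Benjamini-Hochberg adjustment over all genes tested in a group or pair (a value in both orientations, or on the single array, and on at least 18 arrays). The fit was tested on simulated data. For YKH100 and YJS8, with 1 array, the spread is borrowed from the other groups. The repeated column was left out because the labels do not decide its strain, although its GCN5 value is like that of YKH100. Its reading as YJS8 goes against that value. The direction of the ratio was read from the size of GCN5 and SPT3 values and remains likely. The number of arrays limits the precision.

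The members, the comparison lists and the tests were chosen with earlier results of these data known. Named with values are, per group, the up to 3 highest and up to 3 lowest called members, the members called in most groups in each direction, those called against the median, those without a value, the 3 with arrays farthest apart, up to 2 called genes of each other list, the genes most like the set, and genes called in a pair. RPS0A and RPS3, MRPL22, RSM19, and the array values of MRPL13 were given after their values were seen. Alternatives were the deposited scale, readings of the repeated column, no dye term, other minimum numbers of arrays, a fit per reference strain, robust eBayes, a trimmed mean and leaving out each array. Against YKH105 the orientation goes with the array numbers, so a dye effect and an effect of the array series cannot be told apart.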

Additional observations from a re-analysis of the deposited data

Results flagged for a closer look

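Differences between strains of one reference were flagged because the contrast itself passed the limma test, with adjusted p over all genes of the pair. YKH107 minus YKH106 had 18 such members, YJS9 minus YJS7 and YKH108 minus YKH107 had 6 each, YKH109 minus YKH106 had 5, YKH107 minus YKH104 had 4 and YKH108 minus YKH104 had 2. The shares of all genes called higher and lower were 11.3% and 15% in YKH107 minus YKH106 and 9.03% and 8.99% in YJS9 minus YJS7. They were 9.76% and 8.01% in YKH108 minus YKH107, and 10.6% and 15.1% in YKH109 minus YKH106. YKH107 minus YKH104 had 6.17% and 8.69%, and YKH108 minus YKH104 had 7.96% and 7.01%. YJS9 minus YKH100, YJS7 minus YKH101, YJS8 minus YJS7, YJS9 minus YJS8, YKH108 minus YKH106, YKH109 minus YKH107 and YKH109 minus YKH108 had 1 each. In the pairs with 1 member the share of all genes called in a direction was between 1.5% and 9.87%. Only in YKH107 minus YKH106 was a share of the members clearly above that of all genes.

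The repeated column, which no strain comparison used, had a member median of 0.184 on the centred scale, above the self arrays, whose highest was 0.0755. A single array lying far from the others was looked for only among the 4 YJS6 self arrays, in 18 sets of values, and 0 were found. The YKH105 self arrays and the test arrays, YKH109 replicate 2 among them, were not checked in this way.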

How the results depend on the processing

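On the deposited scale the counts of members called became 16 in YKH109, 9 in YKH107, 4 in YJS9, 3 in YKH101, 1 in YKH108 and 0 in YKH100, YJS7, YJS8, YKH104 and YKH106. The medians there were -0.024 (YKH100), -0.32 (YKH101), 0.57 (YJS7), -0.63 (YJS8), -0.30 (YJS8 at 26 °C), -0.28 (YJS9), 0.45 (YKH104), 0.37 (YKH106), -0.35 (YKH107), -0.31 (YKH108) and -0.46 (YKH109). Member differences over the pairs fell from 48 to 28. In YJS8 the estimates of MRP8 and RSM27 turned to -0.025 and -0.20. This setting differs from the reported one only in that no array median was subtracted. With the repeated column under both strains YKH100 had 3 calls and YJS8 a median of 0.21. Read as YKH100 it gave 4 calls, and read as YJS8 it gave 0 in YKH100 and 1 in YJS8, again with a median of 0.21. YKH100 had 0 calls with a value required on every array, with YJS6 arrays fitted alone and with the trimmed mean, and a median of 0.25 with no dye term, where YJS8 had 5 calls. YJS6 arrays fitted alone gave 36 calls in YKH101, 27 in YJS7, 7 in YJS8, 25 in YJS9 and 1 for YJS8 at 37 °C minus 26 °C. A value on every array gave medians of 0.38 in YKH101 and 0.37 in YKH108, and the trimmed mean 0.38 in YKH101, 0.25 in YJS9 and 0.40 in YKH108. For other than the deposited scale the cause was not tested. Shares of all genes were not set beside the counts of these other settings, so the counts cannot show a change particular to the members.

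Leaving out 1 array at a time, calls ranged from 0 to 1 in YKH100, 9 to 31 in YKH101, 6 to 21 in YJS7, 3 to 7 in YJS8, 0 to 0 in YJS8 at 26 °C, 5 to 18 in YJS9, 2 to 22 in YKH104, 0 to 1 in YKH106, 23 to 50 in YKH107, 6 to 31 in YKH108 and 27 to 41 in YKH109, 0 to 1 between the YJS8 temperatures and 23 to 70 over the pairs. Medians ranged from 0.205 to 0.233, 0.351 to 0.407, 0.331 to 0.432, 0.235 to 0.260, -0.064 to 0.0073, 0.220 to 0.236, 0.310 to 0.348, 0.184 to 0.232, 0.576 to 0.715, 0.377 to 0.435 and 0.399 to 0.488 in the same order of groups. The share of all genes called also changes with the array left out, so the ranges of calls do not describe the members alone. The single array of YKH100 or YJS8 cannot be left out of its own group. No paired analysis was possible because the replicate number is the orientation (number 1 has the test strain in channel 1, numbers 2 and 3 in channel 2), so a block equals the dye term. Of 34 named member calls, 34 passed under robust eBayes, 33 with the trimmed mean and 31 with no dye term. On the deposited scale 7 passed, 25 no longer did and 2 changed sign. With YJS6 arrays fitted alone 13 calls passed and 4 did not.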
